A study of Macaca fuscata with 12 samples.

Results

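The Wnt ligands, their receptors, the secreted inhibitors and the cytoplasmic parts of the pathway were followed in the cortex of tool-use trained and control Japanese macaques (Macaca fuscata). The members were all probe sets whose single gene symbol in the array's gene table named a Wnt ligand, a Frizzled receptor (FZD), LRP5 or LRP6, a secreted inhibitor (DKK, SFRP or WIF1), an R-spondin (RSPO) or its LGR receptor, the ligand-processing enzyme PORCN, or a Dishevelled (DVL), Axin, APC or GSK3 protein. This gave 85 probe sets of 49 genes out of 52766 probe sets tested. By role, 24 probe sets measured ligands, 21 receptors, 20 inhibitors, 7 R-spondins and LGR receptors, 1 PORCN and 12 cytoplasmic parts. WNT3A, WNT9A, FZD2, FRZB, DVL1, DVL3, AXIN1, CTNNB1, RSPO4 and LGR6 were not analysed here.

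RNA came from the left hemisphere of 8 animals and was hybridised to 12 Affymetrix rhesus macaque arrays in 4 groups of 3. SII trained and SII control are tissue around the lateral sulcus, which includes the secondary somatosensory cortex, from trained and from untrained animals. IPS trained and IPS control are tissue around the intraparietal sulcus, a region of the parietal lobe, from trained and from untrained animals. The labels name no strain or genotype, and 4 animals are represented in both regions: SII trained 1 shared its animal with IPS trained 1, SII trained 3 with IPS trained 3, SII control 2 with IPS control 1, and SII control 3 with IPS control 2. The trained animals were between 3 years 10 months and 6 years old, and the control animals between 3 years 9 months and 5 years 10 months. The only females were SII trained 2 and SII control 1. The labels name the arrays of the regions in different series, so that region and array batch cannot be told apart.

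Wnt proteins are secreted, lipid-modified signals that act over short distances. PORCN attaches the lipid, and the ligand then binds a Frizzled receptor, for the beta-catenin branch together with LRP5 or LRP6. Dishevelled relays the signal and holds back a complex of Axin, APC and GSK3 that otherwise marks beta-catenin for destruction. Some DKK proteins, such as DKK1, block LRP5 and LRP6, and SFRP proteins and WIF1 bind the ligands themselves. R-spondins act through LGR receptors to keep more Frizzled and LRP at the cell surface. In the brain the pathway is known for patterning the cortex, for the growth of dendrites and synapses, and for the formation of the blood-brain barrier.

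The deposited values are positions on a log2 scale relative to each probe set's own median over the 12 arrays, so they give no level, and genes cannot be ranked by abundance. A rough signal class was read from the spacing of the deposited numbers: 7 member probe sets were of high signal (256 or more in at least 11 arrays), 38 of middle signal (16 or more), and 31 of low signal. A further 9 had their lowest value repeated in at least 2 arrays, a floor that is only an upper limit on the signal. The high-signal probe sets belonged to APC, APC2, DKK3, LRP6, WNT10B and WIF1. The median SD within groups was 0.30 for members of high signal, 0.35 for middle, 0.67 for low and 0.99 for those with a floor. The median standard error (SE) of a training change was 0.41 over the members and 0.44 over all probe sets, and the number of arrays limits this precision.

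Markers of cortical excitatory neurons were measured for 5 of 6 genes on the list and included high-signal probe sets of CUX2 and TBR1. The mean of 18 hybridisation controls, which report the handling of the array and not the tissue, was raised in SII trained 2 (0.49), SII control 1 (0.47) and IPS trained 3 (0.44), and the remaining arrays ranged from -0.14 to 0.08. The 3' minus 5' difference of the GAPDH control probes, a sign of RNA quality, was -0.23 to 0.77 in SII trained arrays. It was -0.51 to -0.27 in SII control arrays, and these groups did not overlap. The same difference of the actin control probes did overlap, with -1.54 to 1.17 in SII trained and -1.87 to 0.25 in SII control arrays. In IPS the trained and control groups overlapped for both, and IPS trained 3 was the highest of all arrays (GAPDH 0.89, actin 1.37). The part of array handling and RNA quality in the results was not tested.

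**Figure D1:**
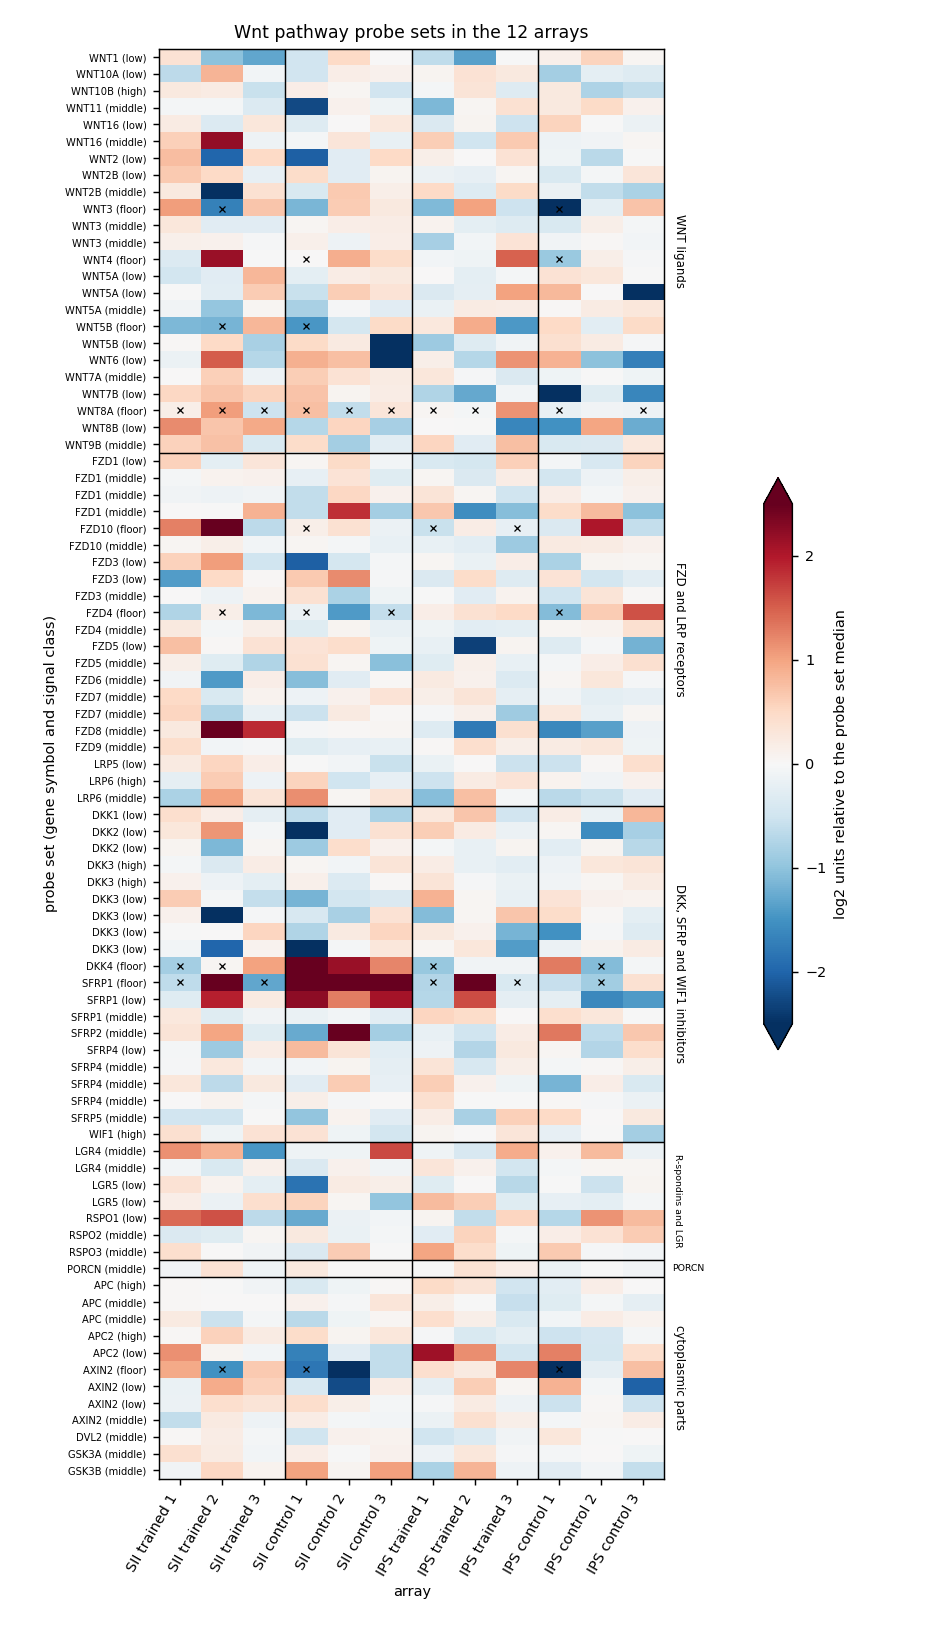
Each row is 1 of the 85 Wnt pathway probe sets, ordered by role, and each column is 1 of the 12 arrays; colour, capped at both ends of the scale, is the deposited log2 value relative to the probe set's median, and a cross marks a value at the floor. Values spread widely within groups, most of all for probe sets of low signal or with a floor, and the highest single value is SFRP1 in SII control 1 (5.37).

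No Wnt pathway member passed the test for training in either region. With limma and Benjamini-Hochberg adjustment over all 52766 probe sets, 0 of 85 members had an adjusted p under 0.05 in SII, where the smallest was 1.00, and 0 of all probe sets were called (0%). In IPS likewise 0 of 85 members and 0 of all probe sets passed (0%), and the smallest adjusted p of a member was 1.00. The same held for the difference between the regions in the training change, where 0 members and 0 of all probe sets passed (0%). At an unadjusted limma p under 0.05, 3 of 85 members (3.53%) were found in SII, beside 3.87% of all probe sets; 1 was higher, beside 2.53%, and 2 were lower, beside 1.35%. In IPS there was 1 member (1.18%), beside 3.27% of all probe sets; 0 were higher, beside 1.81%, and 1 was lower, beside 1.46%. In the difference, IPS minus SII, there were 2 members (2.35%), beside 3.68%, with 1 above 0, beside 1.63%, and 1 below 0, beside 2.05%. These shares lay near or under the background of the array. The changes below are given as values with their SE, and in bulk tissue fewer cells of a type and less RNA per cell cannot be told apart. With 3 arrays against 3, an exact permutation test of a single probe set cannot give a 2-sided p under 0.10.

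As a whole the members lay close to the other probe sets of the array. The median training change in SII was 0.09 over the members, 56 higher and 29 lower in trained animals, and 0.06 over all probe sets, of which 56.4% were higher. In IPS it was 0.04 over the members, 44 higher and 41 lower, and 0.01 over all probe sets, of which 51.7% were higher. Trained and control arrays did not overlap for 7 of 85 members (8.24%) in SII, beside 7.08% of all probe sets; 6 were higher, beside 4.7%, and 1 was lower, beside 2.38%. In IPS they did not overlap for 10 of 85 members (11.8%), beside 9.49% of all probe sets; 5 were higher, beside 5.77%, and 5 were lower, beside 3.72%. No member had groups without overlap in both regions (0 of 85).

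**Figure D2:**
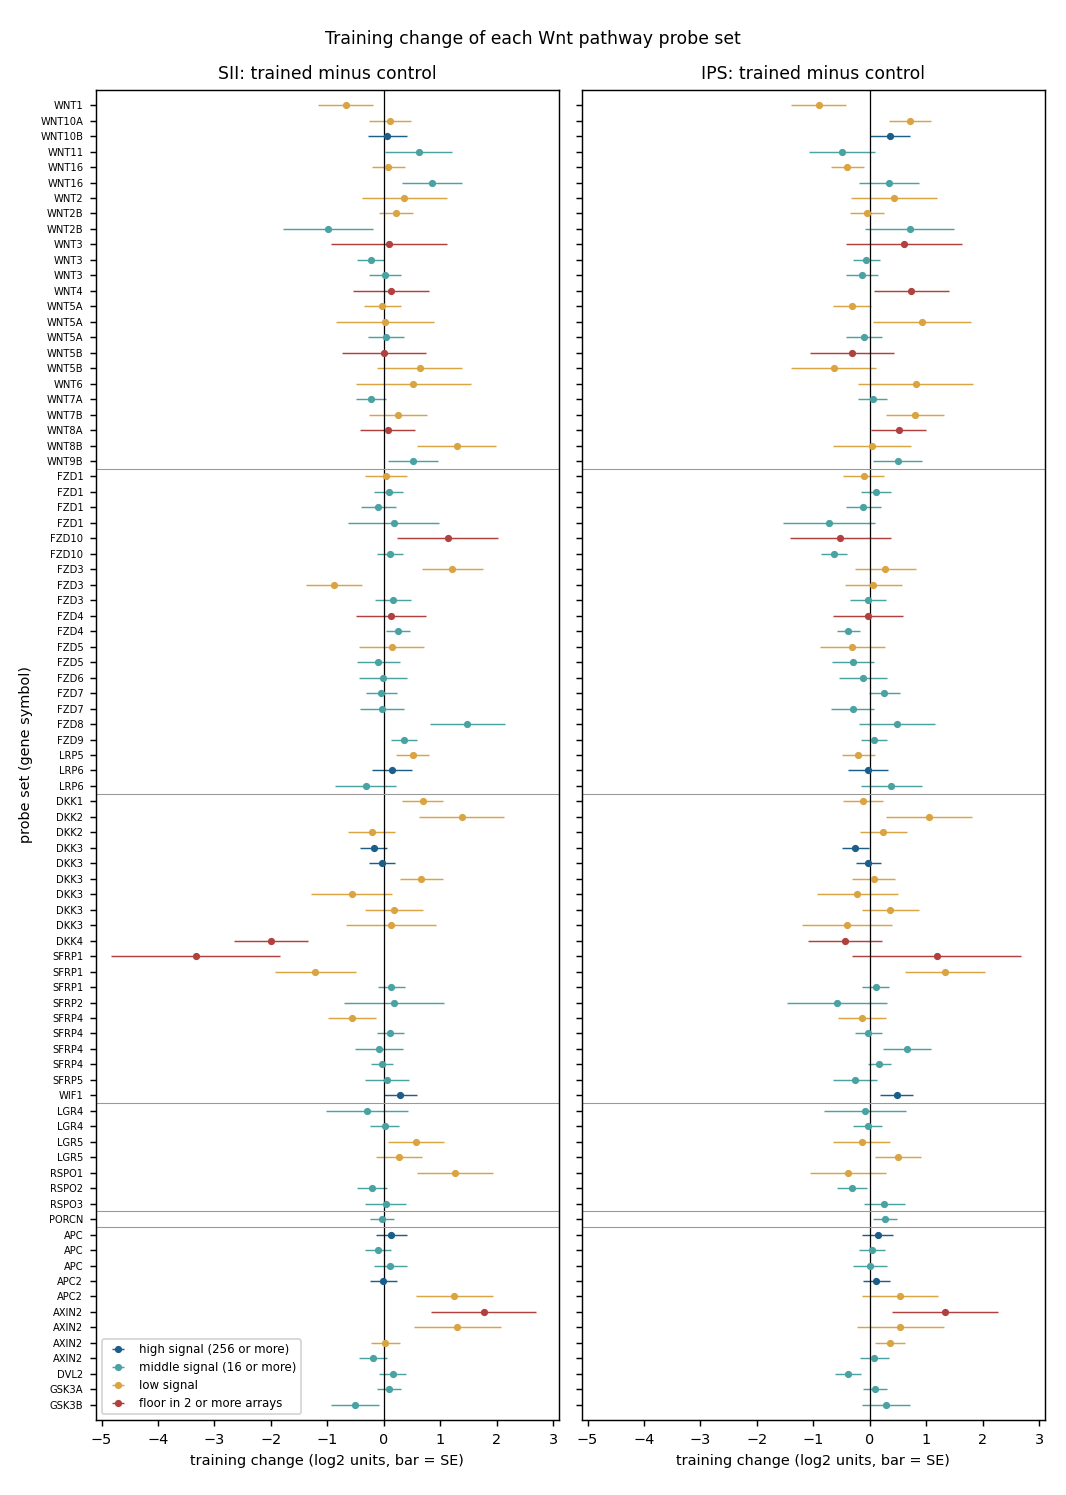
Training change (trained minus control, log2 units) of each of the 85 probe sets, SII in one panel and IPS in the other, grouped by role; bars are the SE from limma. Changes lie on both sides of 0 among ligands, receptors, inhibitors and cytoplasmic parts, and the SFRP1 probe set with a floor lies farthest out in SII (-3.33 ± 1.49).

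Among the 24 ligand probe sets, of 17 genes, 19 were higher and 5 lower in trained SII, beside 56.4% higher of all probe sets, with a median change of 0.08, and none had an unadjusted p under 0.05 there (0 of 24). In IPS 14 were higher and 10 lower in trained animals, beside 51.7% higher of all probe sets, with a median of 0.19 and again 0 of 24. Of WNT1, WNT2, WNT2B, WNT3, WNT4, WNT5A, WNT5B, WNT6, WNT7A, WNT7B, WNT8A, WNT8B, WNT9B, WNT10A, WNT10B, WNT11 and WNT16, the training changes ran between -0.99 and 1.29 in SII and between -0.90 and 0.93 in IPS.

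WNT8B, a ligand known in mice from the developing hippocampal edge of the cortex, had the smallest p among the ligands in SII. Its low-signal probe set read 1.17, 0.68 and 0.96 in SII trained arrays, against -0.71, 0.53 and -0.82 in SII control arrays. All trained arrays lay above all controls, the nearest pair by a small step, and the change was 1.29 ± 0.69 (SE; limma, unadjusted p = 0.0926). In IPS the same probe set read 0.01, -0.01 and -1.63 in trained arrays, against -1.51, 0.99 and -1.24 in control arrays, and the groups overlapped (0.04 ± 0.69). The second ligand by p in SII was a probe set of WNT16, whose SII trained arrays read 0.59, 2.19 and -0.12, against -0.06, 0.30 and -0.18 in SII control arrays. Its change of 0.85 ± 0.53 rested on SII trained 2 and was 0.20 without that array.

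In IPS the smallest ligand p belonged to WNT10A, with 0.08, 0.36 and 0.24 in trained arrays, against -0.85, -0.25 and -0.31 in control arrays. The groups did not overlap and the change was 0.72 ± 0.37 (SE; limma, unadjusted p = 0.0809). WNT1, the founding ligand of the family, lay on the other side: IPS trained arrays read -0.64, -1.36 and -0.00, against 0.13, 0.55 and 0.04 in IPS control arrays. Here too the groups did not overlap, though one pair of arrays lay almost together, and the change was -0.90 ± 0.49 (-0.56 without IPS trained 2). WNT2 (0.43 ± 0.76) and the low-signal probe set of WNT5B (-0.64 ± 0.76) also had IPS groups without overlap, with changes smaller than their SE. So did WNT8A (0.51 ± 0.48), but it stood at the floor in 10 of 12 arrays and gives no reading of the gene.

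WNT10B was the one ligand with a high-signal probe set. It read 0.24, 0.21 and -0.55 in SII trained arrays, against 0.18, 0.05 and -0.48 in SII control arrays. In IPS it read -0.05, 0.32 and -0.32 in trained arrays, against 0.25, -0.77 and -0.62 in control arrays. Both pairs of groups overlapped over most of their range, with changes of 0.06 ± 0.35 in SII and 0.36 ± 0.35 in IPS. PORCN, whose enzyme makes all Wnt ligands fit for secretion, read -0.01, 0.36 and 0.17 in IPS trained arrays, against -0.17, -0.01 and -0.09 in IPS control arrays. Those groups touched without overlapping (0.27 ± 0.21), while in SII they overlapped, with -0.09, 0.35 and -0.12 in trained arrays, against 0.24, 0.01 and 0.02 in control arrays (-0.04 ± 0.21).

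Of the 21 receptor probe sets, of FZD1, FZD3 to FZD10, LRP5 and LRP6, 14 were higher and 7 lower in trained SII, with a median of 0.13, beside 56.4% higher of all probe sets. In trained IPS 7 were higher and 14 lower, with a median of -0.11, beside 51.7% higher of all probe sets. The difference of the training changes, IPS minus SII, was above 0 for 4 receptor probe sets and below 0 for 17, with a median of -0.21, beside -0.04 over all probe sets, of which 46.5% were above 0. One of these 21 passed an unadjusted p of 0.05 in the difference (FZD10), and 0 passed the adjusted test.

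FZD10, a Frizzled that signals through beta-catenin, had the smallest p of all members in IPS. Its middle-signal probe set read -0.19, -0.26 and -0.90 in IPS trained arrays, against 0.22, 0.20 and 0.11 in IPS control arrays. In SII it read 0.05, 0.14 and -0.07 in trained arrays, against 0.05, -0.05 and -0.18 in control arrays. All IPS trained arrays lay below all IPS controls, IPS trained 3 by far, whereas the SII groups overlapped. The change was -0.63 ± 0.23 in IPS (SE; limma, unadjusted p = 0.0209, adjusted p = 1.00) and 0.10 ± 0.23 in SII, and the difference was -0.73 ± 0.32 (unadjusted p = 0.0448). IPS trained 3 is one of the arrays with raised hybridisation controls, and without it the IPS change was -0.41. The other FZD10 probe set stood at the floor in 3 arrays, 2 of them IPS trained, with a change of -0.52 ± 0.89 in IPS and 1.14 ± 0.89 in SII.

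FZD4, the receptor for Norrin in the vessels of the retina and brain, had a middle-signal probe set with the same order of the IPS groups. It read -0.10, -0.26 and -0.24 in IPS trained arrays, against 0.04, 0.09 and 0.40 in IPS control arrays, which did not overlap (-0.38 ± 0.21). In SII the trained arrays read 0.24, -0.04 and 0.15, against -0.31, 0.07 and -0.18 in control arrays, with overlap (0.25 ± 0.21). The difference between the regions was -0.63 ± 0.29 (SE; limma, unadjusted p = 0.0523).

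In SII the receptor with the widest separation was FZD8. Its middle-signal probe set read 0.24, 2.48 and 1.87 in SII trained arrays, against -0.02, 0.02 and 0.05 in SII control arrays. The 3 controls lay close together and every trained array above them, 2 of the 3 far above. The change was 1.48 ± 0.67 (SE; limma, unadjusted p = 0.0505), and 0.86 without the 3 arrays with raised hybridisation controls. In IPS the groups overlapped, with -0.32, -1.77 and 0.40 in trained arrays, against -1.61, -1.35 and -0.12 in control arrays (0.49 ± 0.67). FZD9 (0.35 ± 0.23) and the co-receptor LRP5 (0.52 ± 0.29) also had SII trained arrays above all SII controls.

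FZD3, which acts in mouse axon guidance through the planar polarity branch, gave opposite readings. One low-signal probe set read 0.57, 1.04 and -0.49 in SII trained arrays, against -2.05, -0.44 and -0.05 in SII control arrays, a change of 1.21 ± 0.54 (SE; limma, unadjusted p = 0.048). Those groups overlapped, and the change was 0.26 without the 3 arrays with raised hybridisation controls. The other low-signal probe set had a change of -0.88 ± 0.50 in SII, and the middle-signal one 0.16 ± 0.32. LRP6, the co-receptor that Wnt and Frizzled bring into the signalling complex, had a high-signal probe set that read -0.22, 0.63 and -0.14 in SII trained arrays, against 0.55, -0.50 and -0.21 in SII control arrays. The IPS trained arrays read -0.51, 0.20 and 0.34, against 0.08, -0.08 and 0.10 in IPS control arrays. Its groups overlapped in both regions (0.14 ± 0.35 in SII, -0.02 ± 0.35 in IPS).

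**Figure D3:**
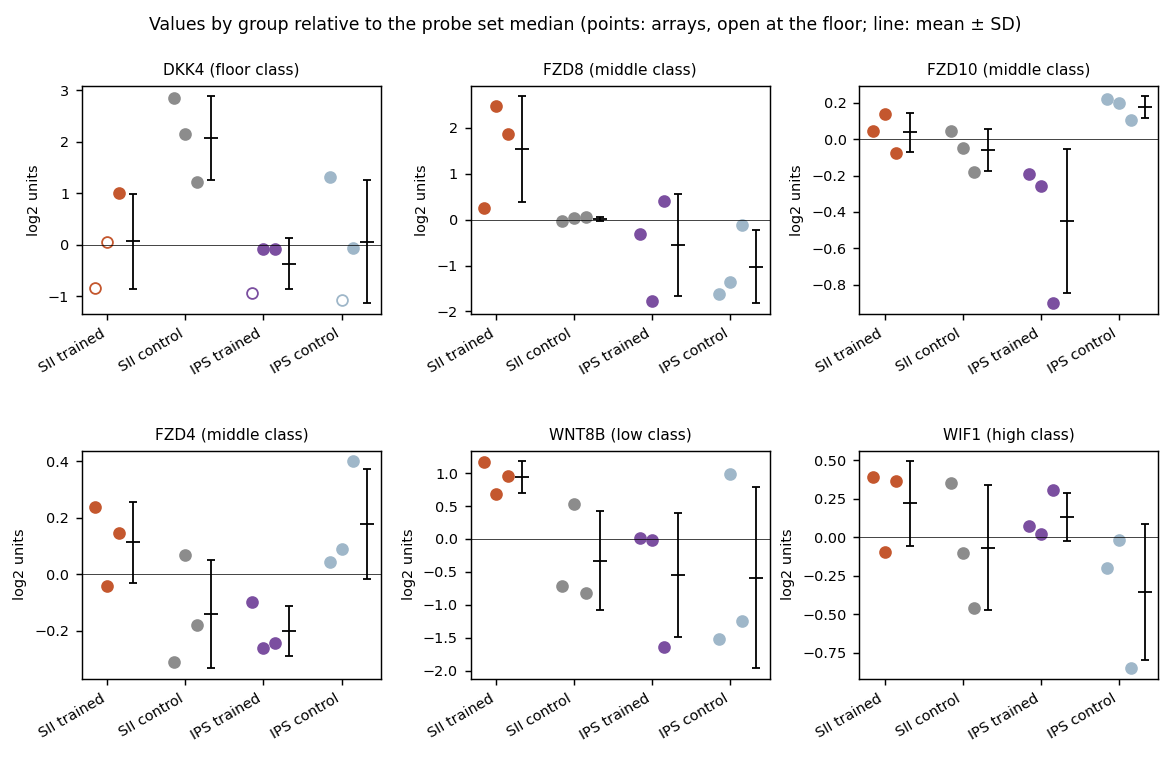
Values by group (log2 units relative to the probe set median) of DKK4, FZD8, FZD10, FZD4, WNT8B and WIF1; points are arrays, open where at the floor, and the line gives the mean ± SD of 3 arrays. DKK4, FZD8 and WNT8B separate in SII, where DKK4 had 2 trained arrays at the floor. FZD10, FZD4 and WIF1 separate in IPS, and no probe set separates in both regions.

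Of the 20 inhibitor probe sets, of DKK1 to DKK4, SFRP1, SFRP2, SFRP4, SFRP5 and WIF1, 10 were higher and 10 lower in trained SII (median change 0.02), beside 56.4% higher of all probe sets. In trained IPS 10 were higher and 10 lower (median 0.02), beside 51.7% higher of all probe sets. The SFRP1 probe set with a floor and that of DKK4 had the largest changes of any member in SII.

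SFRP1, a secreted protein that binds Wnt ligands and is made in mice by progenitors of the developing cortex, was measured by 3 probe sets. The one with a floor read -0.63, 4.46 and -1.30 in SII trained arrays, against 5.37, 3.14 and 4.12 in SII control arrays. In IPS it read -0.73, 3.49 and -0.38 in trained arrays, against -0.58, -0.86 and 0.38 in control arrays. The values fell into high and low arrays with nothing between: SII trained 2, all 3 SII control arrays and IPS trained 2 stood 4.18 to 5.39 above their array's floor, and the other 7 arrays stood at the floor or at most 1.28 above it. SII trained 1, SII trained 3, IPS trained 1, IPS trained 3 and IPS control 2 were at the floor.

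The low-signal SFRP1 probe set, which had no floor, put the same 5 arrays highest. It read -0.30, 1.94 and 0.22 in SII trained arrays, against 2.24, 1.27 and 2.09 in SII control arrays. In IPS it read -0.71, 1.62 and -0.22 in trained arrays, against -0.23, -1.61 and -1.43 in control arrays. The middle-signal SFRP1 probe set did not share the pattern: all its values lay between -0.31 and 0.53. Its SII trained arrays read 0.27, -0.31 and -0.08, against -0.17, -0.06 and -0.26 in SII control arrays, and its IPS trained arrays 0.53, 0.46 and 0.02, against 0.41, 0.28 and -0.02 in IPS control arrays. The deposited values do not say which transcript part each probe set reads.

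The change of the SFRP1 probe set with a floor was -3.33 ± 1.49 in SII (SE; limma, unadjusted p = 0.0488, adjusted p = 1.00). It was -5.14 without SII trained 2 and -2.20 without SII trained 3. The low-signal probe set had a change of -1.22 ± 0.72 in SII and 1.33 ± 0.72 in IPS, and a difference of 2.55 ± 1.00 between the regions (unadjusted p = 0.028). In both regions trained and control arrays of both probe sets overlapped. High and low readings also occurred in the same animal: the animal of SII control 2 and IPS control 1 stood 0.38 above the floor in IPS and 4.53 above it in SII, and that of SII control 3 and IPS control 2 stood at the floor in IPS and 4.59 above it in SII. Markers of meninges and fibroblasts, cells outside the cortex proper, were lower in SII trained animals for 7 of 8 genes measured. LUM had the largest change (-1.53), and the others ran from -0.76 to 0.05. The mean of the list was -0.54 to -0.07 in SII trained arrays and -0.43 to 0.89 in SII control arrays, with overlap. In trained IPS 7 of 8 genes of this list were lower as well, with a median of -0.13. Markers of choroid plexus and ependyma were higher in SII trained animals for 6 of 6 genes, beside 56.4% of all probe sets, a share not averaged by gene. Their list means were -0.05 to 0.83 in SII trained arrays and -0.45 to -0.03 in SII control arrays, with overlap. Other lists were also mostly lower in trained SII: endothelium and pericytes for 5 of 6 genes, astrocytes for 3 of 4 and GABA neurons for 3 of 4. At an unadjusted limma p under 0.05 in SII there were 1 of 8 meningeal genes (LUM) and 0 of 6 choroid plexus genes, beside 3.49% of all genes. The part of these cell types in the SFRP1 and DKK4 values was not tested.

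**Figure D4:**
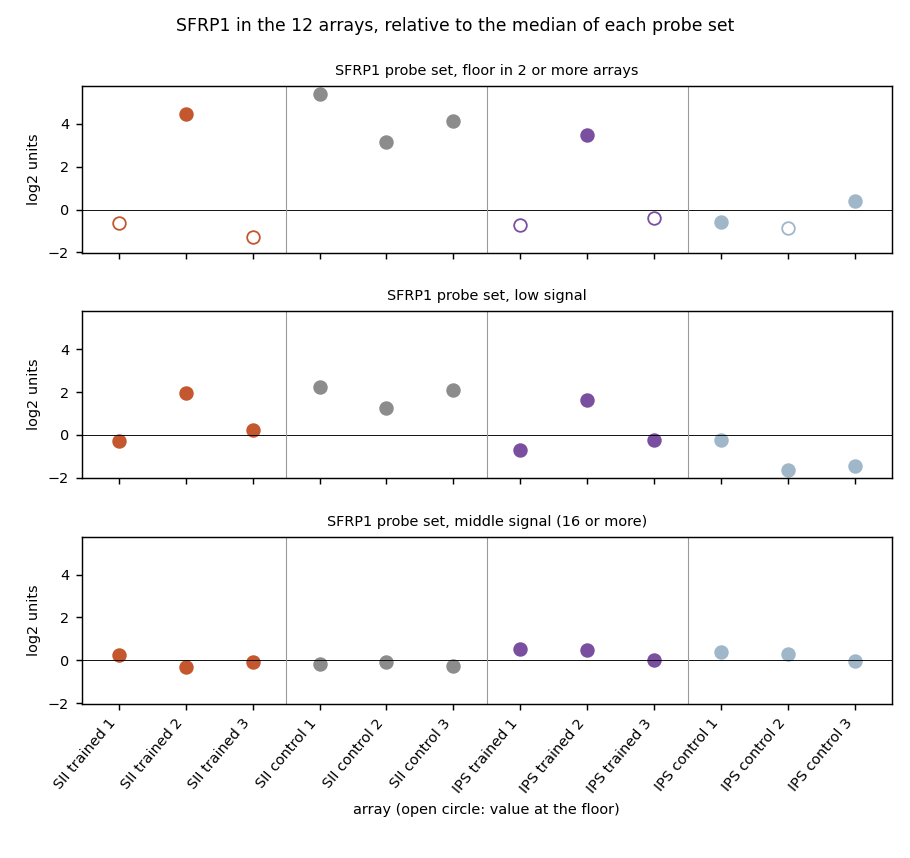
The 3 SFRP1 probe sets in the 12 arrays (log2 units relative to each probe set's median), with open circles at the floor. The probe set with a floor and the low-signal one are high in SII trained 2, the 3 SII control arrays and IPS trained 2, and the middle-signal one stays between -0.31 and 0.53.

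DKK4, which binds LRP5 and LRP6, had the smallest p of all members in SII. Its probe set read -0.85, 0.06 and 1.00 in SII trained arrays, against 2.84, 2.16 and 1.22 in SII control arrays. The groups did not overlap, but SII trained 1 and SII trained 2 were at the floor. Counted above each array's own floor, SII trained 3 stood at 2.52 and SII control 3 at 1.91, so that the order of these arrays was reversed. The change was -2.00 ± 0.66 (SE; limma, unadjusted p = 0.0124, adjusted p = 1.00). In IPS trained arrays it read -0.94, -0.09 and -0.08, against 1.31, -1.08 and -0.06 in IPS control arrays, with overlap (-0.44 ± 0.66).

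WIF1, which holds Wnt ligands outside the cell, had a high-signal probe set and read 0.07, 0.02 and 0.30 in IPS trained arrays, against -0.20, -0.02 and -0.85 in IPS control arrays. The groups did not overlap, yet the change of 0.48 ± 0.30 was 0.23 without IPS control 3. In SII it read 0.39, -0.10 and 0.36 in trained arrays, against 0.35, -0.10 and -0.46 in control arrays, with overlap (0.29 ± 0.30). DKK1, the best-studied blocker of LRP6, had SII trained arrays at 0.41, 0.16 and -0.22, against -0.64, -0.29 and -0.78 in SII control arrays, without overlap (0.69 ± 0.36).

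DKK3, a divergent DKK protein with strong expression in brain neurons, was measured by 6 probe sets, 2 of them of high signal. The first of these read -0.04, -0.36 and 0.18 in SII trained arrays, against 0.04, -0.07 and 0.32 in SII control arrays, and 0.18, -0.18 and -0.27 in IPS trained arrays, against -0.12, 0.29 and 0.31 in IPS control arrays. The second read 0.11, -0.12 and -0.25 in SII trained arrays, against 0.12, -0.34 and 0.03 in SII control arrays, and 0.31, -0.03 and -0.17 in IPS trained arrays, against -0.08, 0.06 and 0.20 in IPS control arrays. Trained and control arrays overlapped for both in both regions, and their changes ran from -0.25 ± 0.24 to -0.02 ± 0.23. The 4 low-signal DKK3 probe sets had changes between -0.57 and 0.66 in SII.

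R-spondins and LGR receptors were measured by 7 probe sets, 5 higher and 2 lower in trained SII, beside 56.4% higher of all probe sets. In trained IPS 2 were higher and 5 lower, beside 51.7% higher of all probe sets. RSPO1 read 1.42, 1.59 and -0.65 in SII trained arrays, against -1.26, -0.14 and -0.07 in SII control arrays. The groups overlapped, and the change of 1.26 ± 0.68 was 0.43 without the 3 arrays with raised hybridisation controls. RSPO2 had a change of -0.32 ± 0.27 in IPS, RSPO3 one of 0.26 ± 0.36, and the LGR4 probe sets -0.08 ± 0.73 and -0.03 ± 0.26. One LGR5 probe set, the receptor that marks stem cells in the gut, had a change of 0.57 ± 0.50 in SII that rested on SII control 1 (-1.85) and was -0.11 without it. The other had 0.51 ± 0.41 in IPS.

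Of the 12 probe sets of cytoplasmic parts, 8 were higher and 4 lower in trained SII, beside 56.4% higher of all probe sets, with a median of 0.10, and 10 were higher and 2 lower in trained IPS, beside 51.7%, with a median of 0.13. AXIN2, a scaffold of the destruction complex and a common readout of beta-catenin signalling because it is itself a target, was measured by 4 probe sets. The one with a floor read 0.95, -1.51 and 0.65 in SII trained arrays, against -1.81, -2.87 and -0.62 in SII control arrays, and 0.41, 0.22 and 1.21 in IPS trained arrays, against -2.74, -0.22 and 0.75 in IPS control arrays. The groups overlapped in both regions, with SII trained 2, SII control 1 and IPS control 1 at the floor, and the changes were 1.77 ± 0.93 in SII and 1.33 ± 0.93 in IPS. The middle-signal AXIN2 probe set had changes of -0.19 ± 0.26 in SII and 0.08 ± 0.26 in IPS. The low-signal AXIN2 probe sets had changes of 1.30 ± 0.77 and 0.03 ± 0.26 in SII, so the probe sets disagreed. The mean of the 4 AXIN2 probe sets gave 0.73 ± 0.28 in SII (SE, limma on gene means, unadjusted p = 0.0259) and 0.57 ± 0.28 in IPS. The SII change did not pass adjustment. In that fit 3 of 49 member genes had an unadjusted p under 0.05 in SII, beside 3.49% of all genes.

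APC, the large scaffold that helps Axin and GSK3 to reach beta-catenin, had a high-signal probe set that read 0.03, -0.01 and -0.08 in SII trained arrays, against -0.39, -0.11 and 0.03 in SII control arrays, and 0.48, 0.33 and -0.49 in IPS trained arrays, against -0.27, 0.16 and 0.01 in IPS control arrays. Its groups overlapped in both regions (0.14 ± 0.28 in each). APC2, the form enriched in the nervous system, had a low-signal probe set at 1.15, 0.07 and -0.07 in SII trained arrays, against -1.70, -0.29 and -0.62 in SII control arrays, without overlap (1.25 ± 0.68), while its high-signal probe set had a change of -0.01 ± 0.24 there. DVL2, a Dishevelled, read -0.50, -0.33 and -0.08 in IPS trained arrays, against 0.27, -0.01 and 0.01 in IPS control arrays, without overlap (-0.39 ± 0.24). The kinases GSK3A and GSK3B had changes of 0.09 ± 0.21 and -0.51 ± 0.42 in SII, and of 0.09 ± 0.21 and 0.29 ± 0.42 in IPS.

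Probe sets of a gene often disagreed. Of 21 genes with several probe sets, all had the same sign for 6 genes in SII, 9 in IPS, 5 in the difference and 5 between the regions.

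Between the regions WNT7B, FZD8, FZD5, DKK4, APC2 and a probe set of SFRP1 had lower values in IPS, and a probe set of FZD4 and another of SFRP1 higher ones. These are the 8 of 85 members (9.41%) with an unadjusted limma p under 0.05, averaged over training, beside 9.26% of all probe sets. Of them 2 were higher in IPS, beside 4.08% of all probe sets, and 6 were lower, beside 5.18%. After adjustment 0 members and 0 of all probe sets passed (0%), and the smallest adjusted p of a member was 0.384, for WNT7B. The median over the members was -0.04, with 39 higher and 46 lower in IPS, and -0.01 over all probe sets, of which 49.2% were higher. In the 4 animals with both regions, 17 of 85 members (20%) had the same sign in 4 of 4, beside 16.1% of all probe sets; 6 were higher in IPS, beside 9.07%, and 11 were lower, beside 7.06%. Where the higher array of a pair stands at the floor, the pair gives no sign. Without the members with such a pair, DKK4 and the FZD4 probe set with a floor, 15 members (17.6%) were left, beside 15.4% of all probe sets. Both female arrays were from SII, so sex was not balanced between the regions. With sex as a covariate 5 of 85 members had an unadjusted limma p under 0.05, beside 3791 of 52766 probe sets. In males alone there were 5 of 85 members, beside 3692 of 52766 probe sets.

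WNT7B, a ligand known in mice for dendrite growth and for the brain's vessels, read -0.75, -1.27 and -0.07 in IPS trained and -2.58, -0.30 and -1.64 in IPS control arrays. The SII trained arrays read 0.51, 0.69 and 0.55, and the SII control arrays 0.72, 0.07 and 0.18. All 6 IPS arrays lay below all 6 SII arrays, and IPS was lower in 4 of 4 animals. The share of all probe sets that separate the regions in this way was not counted. The mean was -1.10 ± 0.93 in IPS and 0.45 ± 0.27 in SII (SD, n = 6 arrays each), a difference of -1.55 ± 0.36 (SE; limma, unadjusted p = 0.00143, adjusted p = 0.384). Within the 4 animals it was -1.25, and in male animals alone -1.43. The probe set is of low signal and is the only one of WNT7B. Its close relative WNT7A, with a middle-signal probe set, had a difference of -0.33 ± 0.18.

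FZD8 had a difference of similar size. Its IPS arrays had a mean of -0.79 ± 0.90 and its SII arrays one of 0.77 ± 1.11 (SD, n = 6 arrays each), a difference of -1.56 ± 0.46 (SE; limma, unadjusted p = 0.00713, adjusted p = 0.438). The regions overlapped, but IPS was lower in 4 of 4 animals, by -1.64, -1.40, -0.56 and -1.46. A low-signal probe set of FZD5 had a difference of -0.95 ± 0.40, which was -0.48 in the 4 animals with both regions, while the middle-signal one had 0.28 ± 0.26. The FZD4 probe set with a floor had a difference of 1.01 ± 0.43, with 3 SII arrays and 1 IPS array at the floor, and of 0.42 when all arrays were given a common floor. The middle-signal FZD4 probe set had -0.00 ± 0.14.

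Among the inhibitors the SFRP1 probe sets pointed in opposite directions between the regions. The low-signal one averaged -0.43 ± 1.16 in IPS and 1.24 ± 1.06 in SII (SD, n = 6 arrays each), a difference of -1.67 ± 0.50 (SE; limma, unadjusted p = 0.00714). The middle-signal one averaged 0.28 ± 0.23 in IPS and -0.10 ± 0.21 in SII, a difference of 0.38 ± 0.17 (unadjusted p = 0.0439). Each kept its own sign in 4 of 4 animals. DKK4 had a difference of -1.23 ± 0.46 (unadjusted p = 0.023). It was lower in IPS in 3 animals, and in the fourth, of SII trained 1 and IPS trained 1, both arrays stood at the floor and gave no sign.

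APC2 was the one high-signal probe set among the 8. It read -0.02, -0.38 and -0.24 in IPS trained and -0.52, -0.41 and -0.05 in IPS control arrays, against 0.02, 0.58 and 0.21 in SII trained and 0.45, 0.07 and 0.29 in SII control arrays. All IPS arrays lay below all SII arrays, by a small step at the nearest, and as for WNT7B the share of all probe sets with this was not counted. The difference was -0.54 ± 0.17 (SE; limma, unadjusted p = 0.00865, adjusted p = 0.456). In male animals alone it was -0.42. The low-signal APC2 probe set had a difference of 0.91 ± 0.47, the other way.

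No cell type marker passed the adjusted limma test between the regions. Microglia markers were lower in IPS for 5 of 5 genes, astrocyte markers for 4 of 4 and excitatory neuron markers for 4 of 5, with CSF1R at -0.58 and SLC17A7 at -0.89. Choroid plexus and ependyma markers were lower for 5 of 6. Markers of meninges and fibroblasts were higher in IPS for 6 of 8, of endothelium and pericytes for 4 of 6 and of GABA neurons for 3 of 4. Of all probe sets, not averaged by gene, 49.2% were higher in IPS, and the median over all genes was -0.02. At an unadjusted p under 0.05 there were 3 of 5 microglia genes, 1 of 4 astrocyte genes and 1 of 5 excitatory neuron genes, beside 10.7% of all genes. Of the 6 endothelial and pericyte genes 1 also passed this limit (FLT1, -1.12), and no gene of the other marker lists did. The mean of the microglia list was -0.37 to -0.08 in IPS trained and -0.60 to -0.13 in IPS control arrays, against 0.27 to 0.32 in SII trained and -0.21 to 0.42 in SII control arrays. The part of these cell types in the region differences of the Wnt genes was not tested.

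**Figure D5:**
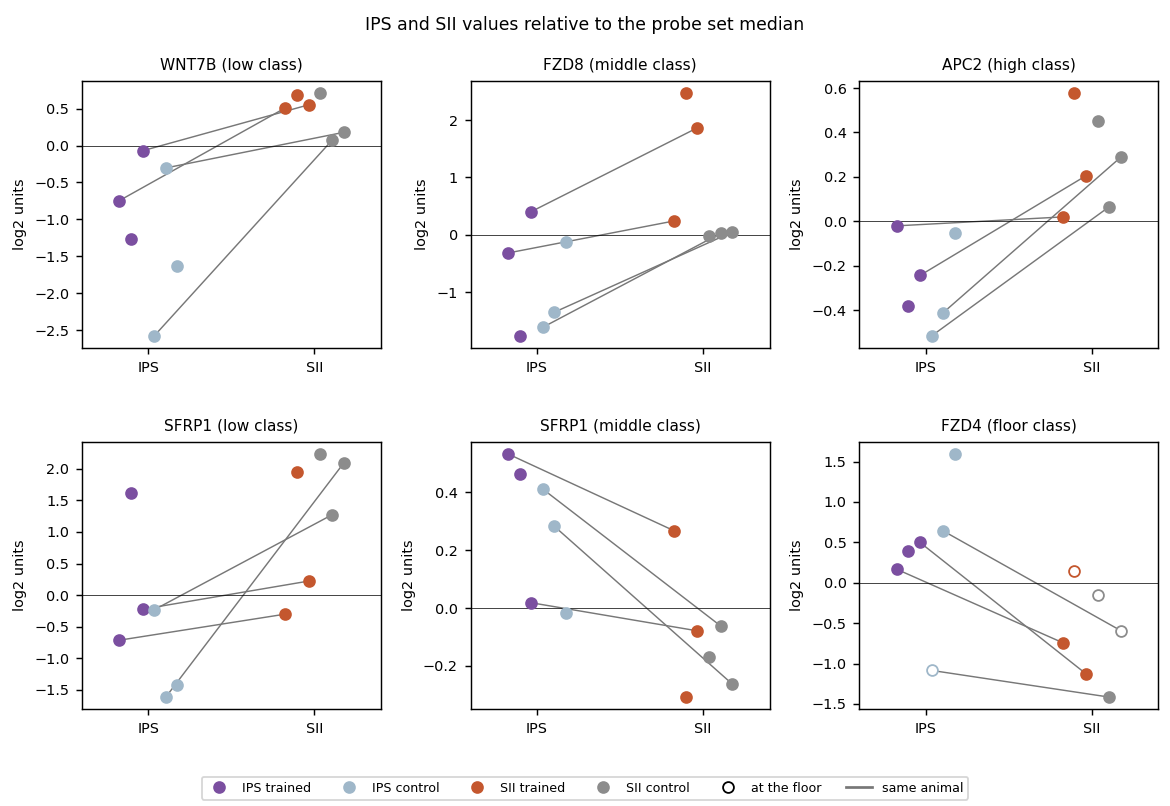
IPS and SII values (log2 units relative to the probe set median) of WNT7B, FZD8, APC2, 2 SFRP1 probe sets and FZD4; points are arrays, open where at the floor, and lines join arrays of the same animal. All 6 IPS arrays lie below all 6 SII arrays for WNT7B and APC2, a separation not counted over all probe sets. The SFRP1 probe sets point in opposite directions.

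Other genes of the pathway gave no call after adjustment either. Of 55 genes on a wider list of transport proteins, alternative receptors, feedback inhibitors, kinases and transcriptional partners, 44 were measured, each as the mean of its probe sets. In SII 24 were higher and 20 lower in trained animals, with a median of 0.03, and in IPS 18 were higher and 26 lower, with a median of -0.10. With limma 0 of 44 passed the adjusted test in any comparison. At an unadjusted p under 0.05 there was 1 gene in SII, beside 3.49% of all genes, 0 in IPS, beside 2.87%, 1 in the difference, beside 3.28%, and 6 between the regions, beside 10.70%. The SII gene was NOTUM, an enzyme that removes the lipid from Wnt ligands (-0.78 ± 0.29), followed by the Wnt5a receptor ROR2 (0.59 ± 0.29). In IPS the smallest p belonged to TSPAN12, a partner of FZD4 in Norrin signalling (-1.03 ± 0.51), and to CXXC4, a Dishevelled-binding inhibitor (0.41 ± 0.24). Between the regions they belonged to WLS, the carrier that brings Wnt ligands to the cell surface (0.34 ± 0.12), and again to TSPAN12 (1.02 ± 0.35). The difference of the training changes had its smallest p for the kinase CSNK1A1 (0.61 ± 0.27) and for AMER1, which recruits APC to the membrane (-0.75 ± 0.38).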

How the data were processed

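Expression was measured in 12 arrays of 4 groups of 3; the labels gave group, replicate number, sex, age and animal. Values were deposited as log2 expression per probe set, centred by the authors on its median over the 12 arrays (largest deviation 2.5e-07). The log base was inferred from the range; how arrays were scaled to each other is not stated in the sources. The submitters' processing notes name MAS5, with no version. Per the labels' protocols, RNA was extracted with an RNeasy lipid tissue kit and checked on a Bioanalyzer.

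Of 52865 probe sets, 99 controls were left out. The gene table, which can be old, gave 1 symbol to 24956 of those tested, several to 361 and none to 27449. No genome coordinates or probe sequences were used here. Signal classes come from the spacing of the single-precision values. The floor was found because at least 766 probe sets shared the commonest difference between any 2 arrays, against at most 6 for the next; the floors of the arrays spanned 1.67 log2 units.

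The values as deposited were fitted with limma 3.58.1 in R 4.3.3: 4 group means over all 12 arrays, duplicateCorrelation by animal (0.0474), eBayes, and Benjamini-Hochberg adjustment over all 52766 probe sets, 2-sided. The script was tested on simulated data. Values in every array were planned for members with an unadjusted p under 0.05 and groups that did not overlap within a region. They were also planned for an unadjusted p under 0.05 in the difference or region comparison. The other grounds were one of the 2 smallest p of a role within a region, or a gene with a high-signal probe set. Some of these members were given only by change or range, or not at all. A few further members were added after their values were seen. The members and gene lists were chosen with earlier results of these data known. Alternatives were another scaling, a common floor, a filter on signal, fits with or without animal, sex, replicate number, array weights or single arrays, and gene means.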

Additional observations from a re-analysis of the deposited data

How the results depend on the processing

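In 27 fits, 0 member probe sets passed an adjusted p of 0.05 in any comparison, and the smallest adjusted p of a member was 0.197, between the regions. The count over all probe sets, 0 as deposited, was 1 in SII after quantile normalization and with high or middle signal only, and 2 with sex as a covariate and with array weights. In the difference it was 1 without the 3 arrays with raised hybridisation controls. Between the regions it was 5 after quantile normalization, 1 with a common floor, 2 with sex as a covariate and 3 on gene means. Leaving out 1 array at a time gave 0 to 3 in SII, 0 to 2 in IPS, 0 to 2 in the difference and 0 to 14 between the regions, the last without SII trained 3. The cause was not tested. Members with an unadjusted p under 0.05 numbered 0 to 6 in SII, 0 to 4 in IPS, 0 to 5 in the difference and 5 to 11 between the regions. Of 32 changes chosen by the naming rule, 30 kept their sign in every fit. Most were chosen for a small p in these same data, and the fits share most of their arrays. A kept sign is therefore likely beforehand, and the count does not measure how reliable the changes are. PORCN in SII (-0.04) ranged from -0.19 to 0.066 as arrays were left out in turn. LGR5 in SII (0.57) was -0.12 in males only, -0.12 without the 3 arrays with raised hybridisation controls and -0.11 to 0.92 as arrays were left out in turn.

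With the replicate number as a block, 0 probe sets passed in each comparison, and 3 members in SII, 2 in IPS, 1 in the difference and 6 between the regions had an unadjusted p under 0.05. The labels do not give the numbers as animals or batches. They match the animal between the regions for trained 1 and trained 3 only. Deviations of same-numbered arrays correlated between -0.20 and 0.06.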

Other observations

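In the 2 arrays from female animals, SII trained 2 and SII control 1, 8 of 85 members lay above all male arrays (9.41%) and 6 below (7.06%), beside 9.42% and 7.30% of all probe sets. Those above included both LRP6 probe sets, at 0.55 to 0.63 in females and at most 0.34 in males for the high-signal one, and at 1.01 to 1.16 in females and at most 0.75 in males for the other. WNT7A read 0.60 to 0.61 in females and at most 0.36 in males. WNT7B read 0.69 to 0.72 in females and at most 0.55 in males. The high-signal APC2 probe set read 0.45 to 0.58 in females and at most 0.29 in males. The SFRP1 probe set with a floor read 4.46 to 5.37 in females and at most 4.12 in males. Those below included WNT2, at -2.04 to -1.99 in females and at least -0.68 in males, FZD6, at -1.42 to -1.07 in females and at least -0.35 in males, and a middle-signal probe set of WNT5A, at -0.97 to -0.82 in females and at least -0.28 in males. The same arrays were both from SII and had raised hybridisation controls, so sex and array handling cannot be told apart.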
